A study of Homo sapiens with 4 samples.

Results

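Complement genes transcribed by fibroblasts were followed in the HMGB1 knockdown data. They are C1R, C1S, C3, CFB, CFD, CFI, SERPING1, CD55 and CD59, 9 of the 63677 genes counted, and were chosen by symbol, 1 identifier on a primary chromosome each. All 9 had reads in every library and all 9 passed the filter on low counts, which kept 15398 genes.

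Complement is a cascade of serum and membrane proteins that tags targets for uptake and can open pores in membranes. The classical pathway starts when C1 binds an antibody complex and its proteases C1r and C1s become active, and the alternative pathway amplifies deposited C3b with factor B and factor D. Liver supplies most of the serum proteins, while fibroblasts are a known local source of C1r, C1s, C3 and C1 inhibitor and, like most nucleated cells, carry membrane regulators that protect them from their own complement.

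The cells were IMR90, normal human lung fibroblasts. RNAiMAX was used to transfect them with a non-targeting control siRNA (control) or with siRNA against HMGB1 (HMGB1 knockdown), and poly(A) RNA was sequenced after 72 h. Each group had 2 libraries, 1 from isolate I90-10 and 1 from isolate I90-79, so a replicate is another isolate and not a repeat culture of the same one. The labels name no deletion and no other agent for either group. In the study 2 different siRNAs were used on these cells per its methods, and which of them each library received is not given in the sources used here.

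The libraries held between 29861687 and 35317010 counted reads. HMGB1, the targeted gene, had 181 and 237 CPM (reads of a gene relative to the size of the library, scaled by the TMM method) in the control libraries and 15.96 and 18.9 CPM in the knockdown libraries, an edgeR log2-fold change of −3.59 (adjusted p = 0.0075). All 10 fibroblast markers had reads in every library, from a mean of 112 CPM for PDGFRB to 8655 CPM for COL1A1. The summed level was 0.173 to 0.434 CPM for 7 macrophage markers, which CSF1R led at 0.193 CPM and in which MARCO had 0 reads, and 0.128 to 0.173 CPM for 6 hepatocyte markers, led by APOB at 0.0797 CPM, with FGA at 0 reads. It was 0.516 to 0.715 CPM for 6 epithelial markers, of which EPCAM made up 0.586 CPM, with KRT5 at 0 reads. The 5 endothelial markers with an identifier summed to 136 to 150 CPM, of which TEK made up 140 CPM on average, and CDH5 had 0 reads in every library. In bulk RNA, fewer cells of a type and less RNA per cell cannot be told apart.

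The 250 bases before the start of 3 members are shown because these are the genes discussed most: CD55, higher in both knockdown libraries, CD59, lower in both, and CFB, a gene known to be induced by interferon. They are RefSeq sequences on GRCh38.p14, another build than the hg19 of the counts, each written 5′ to 3′ on the strand of the gene. Capitals mark letters of the motifs searched on both strands, and of 9 members 6 had an entry. CD55 lies on the plus strand at chr1:207321428-207321677, CD59 (the farthest upstream of 4 starts) on the minus strand at chr11:33736480-33736729, and CFB on the plus strand at chr6:31945845-31946094.
CD55: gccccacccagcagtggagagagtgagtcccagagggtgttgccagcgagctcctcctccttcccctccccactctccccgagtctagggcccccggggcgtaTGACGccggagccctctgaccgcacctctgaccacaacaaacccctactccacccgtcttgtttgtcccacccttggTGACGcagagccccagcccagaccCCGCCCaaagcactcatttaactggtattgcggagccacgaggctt
CD59: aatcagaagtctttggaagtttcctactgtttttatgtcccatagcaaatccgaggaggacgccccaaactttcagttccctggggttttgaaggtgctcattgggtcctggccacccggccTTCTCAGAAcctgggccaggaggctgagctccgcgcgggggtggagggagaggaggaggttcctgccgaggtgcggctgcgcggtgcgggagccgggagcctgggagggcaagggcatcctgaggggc
CFB: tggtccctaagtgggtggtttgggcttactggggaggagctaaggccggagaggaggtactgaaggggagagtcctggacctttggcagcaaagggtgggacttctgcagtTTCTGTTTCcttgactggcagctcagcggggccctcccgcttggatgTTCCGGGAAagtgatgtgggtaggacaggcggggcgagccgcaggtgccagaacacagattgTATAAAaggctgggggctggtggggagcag

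In the CFB window the capitals are the core of an interferon-stimulated response element (GAAANNGAA, read on the opposite strand) that begins 139 bases before the start, an interferon-gamma-activated site (TTCNNNGAA) at 92 bases and a TATA box (TATAAA) at 30 bases. Of 34788 distinct windows of the same length, 6.89% held the first, 6.57% the second and 10.8% the third. The CD59 window held 1 interferon-gamma-activated site, at 128 bases. The CD55 window held the half-site of the cAMP response element (TGACG) at 147 and 70 bases, a word found in 21.2% of windows, and an SP1 box (GGGCGG, read on the opposite strand) at 46 bases, found in 42.6%. The C/EBP word TTGCNNAA (9.05% of windows) was found before starts of CD59 and C1R, the AP-1 word TGANTCA (6.59%) before another start of CD59, and the NF-kappaB motif (5.21%) before none of the 6 members. An interferon-gamma-activated site also lay 86 bases before start 2 of C1R. The shares are per window, and CD59 had 4 windows and C1R 2, so these genes had more chances of a match. No overlap occurred between the motifs marked in the 3 windows, and a match describes letters, not a bound site.

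Levels of the 9 genes, compared as CPM per kilobase of exon, spanned more than 2 orders of magnitude. CD59, whose product stops assembly of the membrane attack complex, had the highest mean, 104 CPM per kb (range over 4 libraries 81.6 to 131). C1S followed at 69.7 (55.8 to 88.2) and C1R at 37.3 (28.4 to 47.6). CD59 and C1S overlapped in range, but CD59 was above C1S in each library, and C1R stayed below both. CD55 came next at 14.1 CPM per kb (7.16 to 21.1), then SERPING1 at 8.28 (5.30 to 10.5) and C3 at 5.42 (4.33 to 8.54). The ranges of these 3 overlapped. SERPING1 was above CD55 in the control library of I90-10, and C3 was above SERPING1 in that of I90-79. CFB, CFD and CFI lay far lower, at means of 0.305, 0.277 and 0.206 CPM per kb, with ranges that overlapped each other and not those of the other members.

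Counts of 4 members share ground with other genes. In the annotation of the count files, 58.85% of the exonic bases of CFB also belong to C2 or to ENSG00000244255, a gene with 0 reads in every library. The share was 14.3% for C1R (with C1RL), 5.14% for CD59 (with C11orf91) and 3.58% for C1S (with EMG1), all on the same strand, and 0 for the others. A read in such a stretch can be left unassigned, so the level of CFB above all may be too low.

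**Figure D1:**
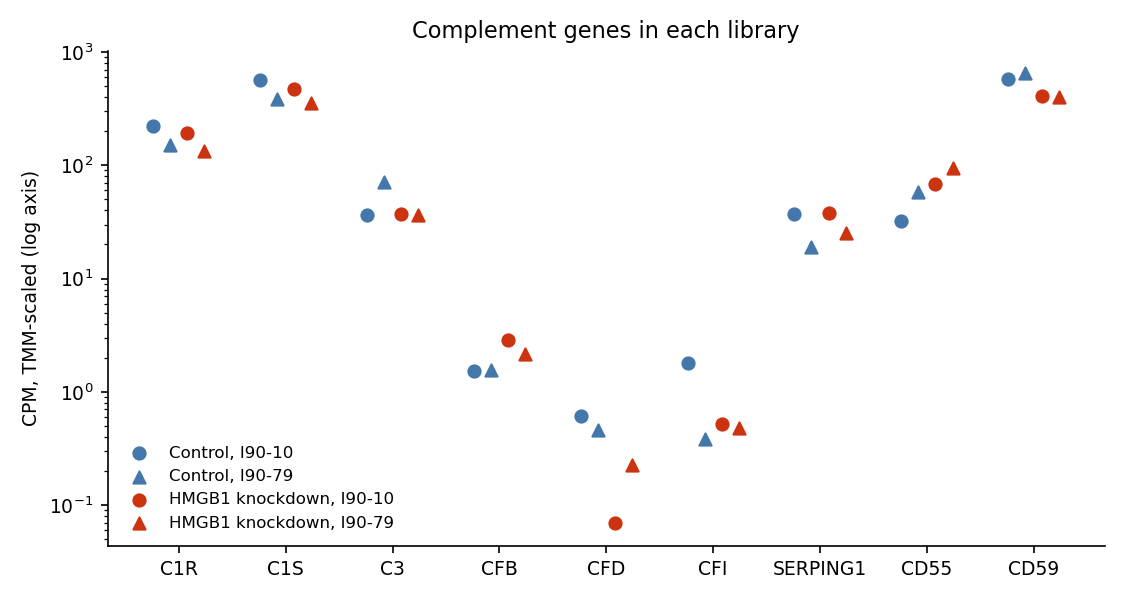
Level of each complement gene in each library, as TMM-scaled CPM on a log axis; blue marks control and red HMGB1 knockdown, circles isolate I90-10 and triangles isolate I90-79. Red lies above blue for CFB and CD55 and below blue for CFD and CD59, and the groups overlap for the other 5 genes.

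The first comparison asks whether loss of HMGB1 changes the expression of these genes. CD55 was higher and CD59 lower in both isolates upon knockdown, while C1R and C1S changed by less than the isolates differed and C3 differed in 1 isolate only. None of the 9 genes was called by edgeR's quasi-likelihood test without a term for the isolate, where a call needs an adjusted p below 0.01 and a log2-fold change past 0.6 in either direction. That test called 0.0649% of all genes tested as higher and 0.136% as lower. An unadjusted p below 0.05 was found for 3 members, CFD, CD55 and CD59, against 28.3% of all genes. The median log2-fold change of the members was −0.20, the value of C1R, beside −0.005 for all genes. With RUVs followed by DESeq2 the median of the members was 0.08, beside 0.0002 for all genes. The factor that RUVs adds was higher in the knockdown than in the control library of each isolate. Values with RUVs are therefore not knockdown effects corrected for the isolate alone.

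The labels give the same 2 isolates in both groups. With the isolate as a replicate block, edgeR called CD55 as higher (6.68% of all genes were) and 0 members as lower (7.84% of all genes were). At an adjusted p below 0.05 with any fold change, that fit found CD55 and CD59, beside 32.3% of all genes. DESeq2 without the block called 0 members, beside 4.73% of all genes higher and 5.31% lower. DESeq2 with the block called CD55 (6.28% of genes higher, 7.09% lower), and RUVs followed by DESeq2 called 0 members higher (4.97% of genes) and 2 lower (5.4%), C3 and CD59. Both knockdown libraries lay above both control libraries for 2 members and for 29.8% of all genes, and below them for 2 members and for 30.2% of all genes. Counts of 1 or 2 members of 9 are read against these shares.

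CD55 (ENSG00000196352, chromosome 1, 207494853 to 207534311 of hg19, plus strand) encodes decay accelerating factor, which takes apart the convertases that cleave C3. It had 32.0 CPM in I90-10 and 58.5 in I90-79 in the control, and 68.3 and 94.6 CPM in the same isolates upon knockdown. Both knockdown values exceeded both control values, and I90-79 was the higher isolate in each group. The mean was 45.2 ± 18.7 CPM in control and 81.4 ± 18.6 CPM in knockdown libraries (SD, n = 2). The log2-fold change was 0.85 (SE 0.32, adjusted p = 0.161) without the block and 0.89 (SE 0.12, adjusted p = 0.0012) with it, a 1.85-fold increase. RUVs followed by DESeq2 gave 0.54, or 1.45-fold (adjusted p = 0.0103), which was not called. Within the isolates CD55 was 2.13-fold higher in I90-10 (95% exact counting interval 1.97 to 2.31) and 1.62-fold higher in I90-79 (1.53 to 1.71). Without the block, leaving out control replicate 1 gave 0.48 and leaving out control replicate 2 gave 1.35.

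CD59 (ENSG00000085063, chromosome 11, 33719807 to 33757991, minus strand) encodes a membrane-anchored protein that binds C8 and C9. Its levels were 583 and 649.7 CPM in the control libraries of I90-10 and I90-79, and 413 and 403 CPM in the knockdown libraries. The groups did not overlap, and the knockdown libraries differed from each other by far less than from either control. The mean was 616 ± 47.1 CPM in control and 408 ± 6.82 CPM in knockdown libraries (SD, n = 2). The log2-fold change of −0.59 (SE 0.13, adjusted p = 0.057) stayed at −0.59 with the block (SE 0.10, adjusted p = 0.0031), just short of the fold limit of 0.6, so CD59 was not called there. RUVs followed by DESeq2 placed it at −0.63 (adjusted p = 8.6e-05) and called it. CD59 was at 0.709 of its control level in I90-10 (interval 0.692 to 0.725) and at 0.621 in I90-79 (0.608 to 0.635).

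The number of CD59 reads per CD55 read sets both membrane regulators side by side within a library and needs no scaling between libraries. It was 18.2 (95% exact interval 17.0 to 19.5) and 11.1 (10.6 to 11.6) in the control libraries of I90-10 and I90-79. Upon knockdown it was 6.05 (5.77 to 6.35) and 4.27 (4.10 to 4.44). Each knockdown ratio was below both control ratios. That order follows from CD55 being higher and CD59 lower in both knockdown libraries, and is no further result. I90-79 had the lower ratio in both groups. The ratio itself was not tested.

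**Figure D2:**
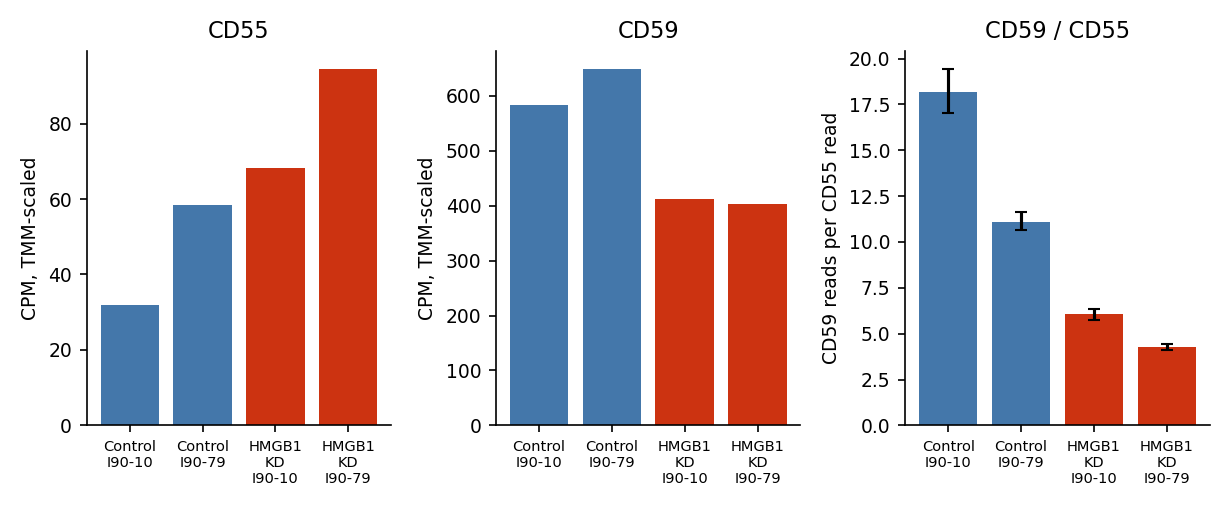
CD55 and CD59 in TMM-scaled CPM and CD59 reads per CD55 read in each library (blue control, red HMGB1 knockdown); error bars on the ratio are 95% exact counting intervals. CD55 is higher and CD59 lower in both knockdown libraries, and the ratio goes from 18.2 and 11.1 to 6.05 and 4.27.

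C1R (ENSG00000159403, chromosome 12, 7187513 to 7245203, minus strand) and C1S (ENSG00000182326, chromosome 12, 7096351 to 7178336, plus strand) are neighbours that encode the proteases of C1, of which C1r cleaves C1s. C1R had 223 and 151 CPM in the control libraries of I90-10 and I90-79 and 193 and 133 CPM in the knockdown libraries. C1S had 564 and 386 CPM in the control and 476 and 356 CPM in the knockdown. Both groups overlapped, with I90-10 above I90-79 in each. The log2-fold changes were −0.20 for C1R (SE 0.26, adjusted p = 0.666) and −0.19 for C1S (SE 0.24, adjusted p = 0.649), and with the block −0.19 (adjusted p = 0.143) and −0.18 (adjusted p = 0.191). The change of each was smaller than the spread between the isolates. The number of C1S reads per C1R read lay between 2.46 (95% exact interval 2.38 to 2.54) and 2.68 (2.58 to 2.77) in the 4 libraries, a narrow range in which the counting intervals of the lowest and the highest did not meet.

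C3 (ENSG00000125730, chromosome 19, 6677715 to 6730573, minus strand) encodes the protein on which all pathways of complement converge. It had 36.4 CPM in the control library of I90-10 and 71.1 CPM in that of I90-79, and 36.8 and 36.1 CPM upon knockdown. Only the control library of I90-79 stood apart, and the other 3 libraries were within 1 CPM of each other. The log2-fold change was −0.56 (SE 0.31, adjusted p = 0.30), and −0.49 with the block (SE 0.21, adjusted p = 0.106). Without control replicate 2 it was 0.0029. RUVs followed by DESeq2 called C3 as lower, at −0.75 (adjusted p = 0.0075). In I90-79 alone the knockdown level was 0.507 of the control level (interval 0.473 to 0.544), and in I90-10 it was 1.01 (0.929 to 1.10).

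By its pattern over the 4 libraries, C3 was most like TCF21, a transcription factor of mesenchymal cells, followed by PRR11, SLC25A10, CENPH and KIF20A. The measure was the Euclidean distance between log2 CPM values centred over the 4 libraries, 0.072 for TCF21 and 0.160 for KIF20A, among 13105 genes whose mean level was 1 CPM or more. TCF21 had 132 and 261 CPM in the control libraries and 139 and 127 CPM in the knockdown libraries. With 4 libraries such likeness is common, and 197 genes lay within a distance of 0.5 of C3.

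CFB (ENSG00000243649, chromosome 6, 31895475 to 31919861, plus strand) encodes factor B, the protease subunit of the alternative pathway convertase. Its counts were 45 and 58 in the control and 82 and 67 in the knockdown libraries, or 1.53, 1.57, 2.84 and 2.15 CPM. The groups did not overlap. The log2-fold change was 0.68 (SE 0.29, adjusted p = 0.204), and 0.66 with the block (adjusted p = 0.108). The ratio of knockdown to control was 1.85 in I90-10 (interval 1.27 to 2.73) and 1.36 in I90-79 (0.945 to 1.97), so that counting error alone covers no change in I90-79.

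CFD (ENSG00000197766, chromosome 19, 859453 to 863453, plus strand) encodes factor D, the protease that cleaves factor B and is best known as an adipocyte product. Control libraries held 18 and 17 CFD reads, and knockdown libraries 2 and 7. The groups did not overlap, yet every value was below 1 CPM. The log2-fold change of −1.82 (SE 0.64, adjusted p = 0.143; with the block −1.82, adjusted p = 0.074) did not pass. The ratio in I90-10 was 0.113 with an interval from 0.0127 to 0.472, and in I90-79 it was 0.486 with an interval from 0.170 to 1.23.

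CFI (ENSG00000205403, chromosome 4, 110661852 to 110723335, minus strand) encodes factor I, the plasma protease that inactivates C3b. Control libraries held 53 and 14 CFI reads, and knockdown libraries 15 and 15. Only the control library of I90-10 was high, and the groups overlapped. The log2-fold change was −1.10 (SE 0.78, adjusted p = 0.405), −0.88 with the block (adjusted p = 0.273), −0.04 with RUVs followed by DESeq2 and 0.39 without control replicate 1.

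SERPING1 (ENSG00000149131, chromosome 11, 57364860 to 57382326, plus strand) encodes C1 inhibitor, the serpin that blocks C1r and C1s. It had 37.1 and 19.1 CPM in the control and 37.7 and 25.5 CPM in the knockdown libraries, with I90-10 the higher isolate in each group. The log2-fold change was 0.17 (SE 0.36, adjusted p = 0.793), and 0.21 with the block (SE 0.13, adjusted p = 0.230). RUVs followed by DESeq2 gave 0.63 (adjusted p = 0.0102), which was not called. The ratio was 1.02 in I90-10 (interval 0.933 to 1.11) and 1.33 in I90-79 (1.20 to 1.48).

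**Figure D3:**
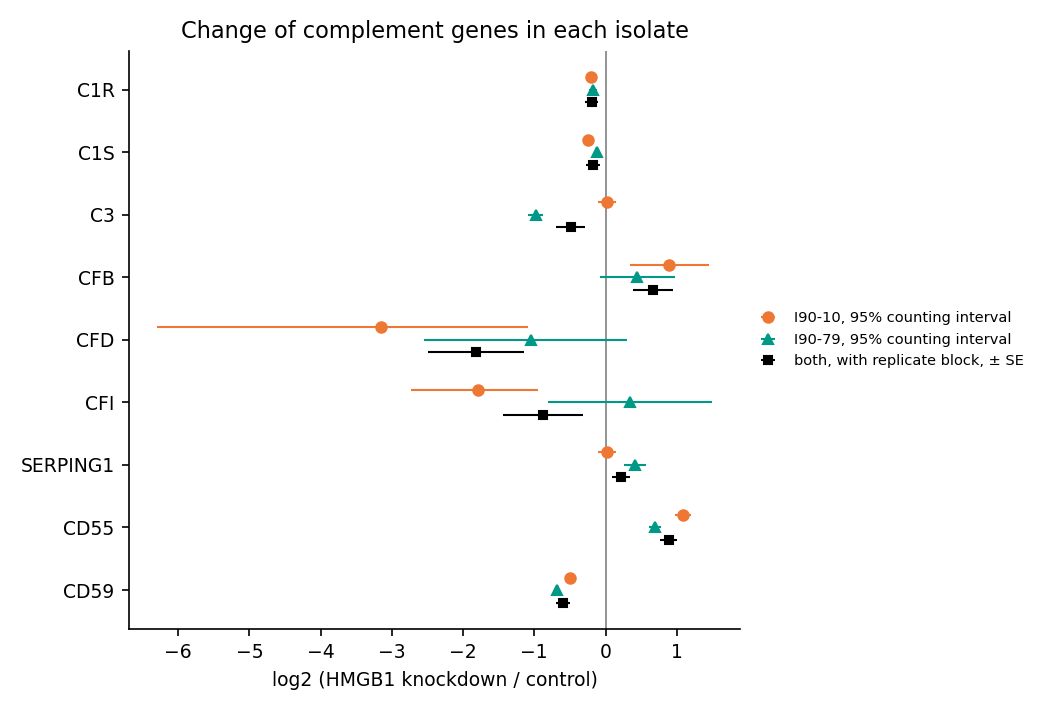
log2 ratio of HMGB1 knockdown to control for each member in I90-10 (orange) and I90-79 (green), with 95% exact counting intervals, and the edgeR estimate with the replicate block (black, ± SE). Both isolates lie on the same side of 0 for 7 genes, while C3 and CFI change side, and the intervals of CFD and CFI are wide.

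The second comparison asks how the members differ between the isolates, with the siRNA as a term in the model. Isolate and replicate number coincide, so the isolate cannot be told apart from anything else that differed between the replicates. The p-values compare these 2 isolates and do not measure variation among isolates. C1R, C1S and SERPING1 were lower and CD55 was higher in I90-79 than in I90-10, at log2 differences of −0.55 (SE 0.09, adjusted p = 0.014), −0.48 (SE 0.10, adjusted p = 0.027), −0.76 (SE 0.13, adjusted p = 0.014) and 0.66 (SE 0.12, adjusted p = 0.019). None of the 9 passed the stricter rule of an adjusted p below 0.01 with the fold limit, which 1.67% of all genes passed by edgeR, and 5 had an unadjusted p below 0.05, beside 22.2% of all genes. At an adjusted p below 0.05, 1 member was higher and 3 were lower, beside 2.7% and 4.08% of all genes. DESeq2 with the same terms called SERPING1 and CD55 by the stricter rule, beside 2.92% of all genes in either direction. CD59 differed by 0.06 (SE 0.10, adjusted p = 0.775), and C3, CFB, CFD and CFI did not pass either.

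C1 proteases and their inhibitor thus lay on the same side between isolates. Of 10 fibroblast markers, 9 were lower and 1 was higher in I90-79. Their summed level was 34802 and 33731 CPM in the I90-10 libraries and 18862 and 21615 CPM in the I90-79 libraries. In the control library of I90-10, COL1A1, COL1A2 and COL3A1 held 12559, 10228 and 7835 CPM of it. As lower in I90-79, edgeR called 5 markers, beside 189 of 15398 genes tested. COL1A1 was 2.01-fold lower (adjusted p = 0.0033). The part of these markers in the isolate difference was not tested. Upon knockdown with the block, 1 fibroblast marker was called higher and 2 lower, beside 6.68% and 7.84% of all genes. Of the endothelial markers VWF, chosen after its values were seen, had 40 and 34 reads in control and 120 and 81 in knockdown libraries, a log2-fold change of 1.57 (adjusted p = 0.068), and 1.55 with the block (adjusted p = 0.0036, called), while CDH5 had 0 reads. The summed level of the endothelial markers went the other way, from 150 and 149 CPM in control to 136 and 136 CPM in knockdown libraries. Of 3 endothelial markers tested, 2 had a positive and 1 a negative log2-fold change with the block. With RUVs followed by DESeq2, 1 was positive and 2 were negative. The part of the fibroblast and endothelial markers in the changes upon knockdown was not tested.

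**Figure D4:**
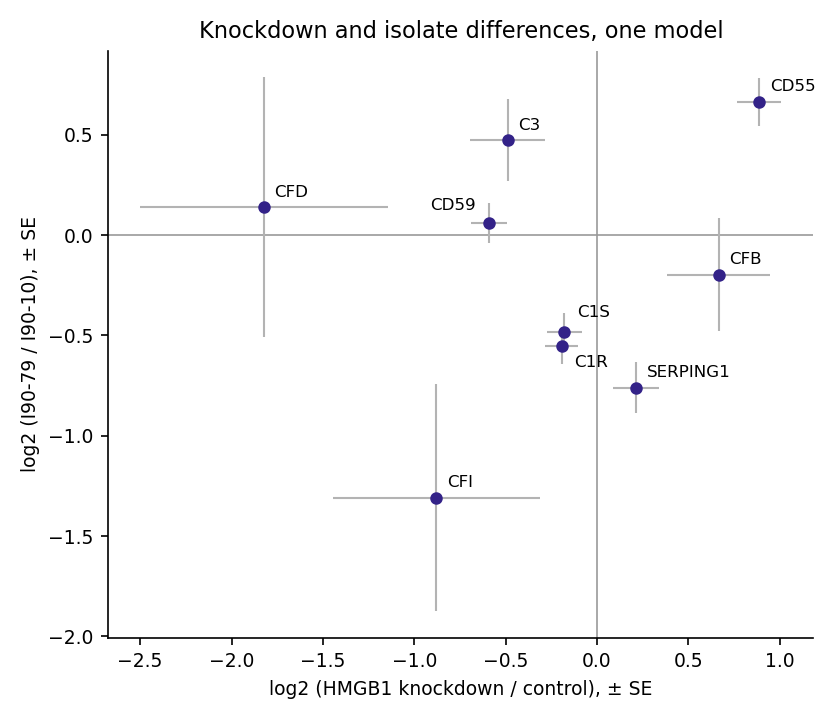
Difference between isolates (vertical, log2 I90-79 over I90-10) against the change upon HMGB1 knockdown (horizontal, log2), both ± SE from the edgeR model with both terms. CD55 is positive on both axes, C1R, C1S and CFI are negative on both, and CD59 is negative on the knockdown axis only, at 0.06 between isolates.

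Of 48 other complement genes, 17 had enough reads to be tested and 18 had 0 reads in every library. Without the block edgeR called 0 of them, 6 had an unadjusted p below 0.05 (28.3% of all genes did), and DESeq2 called 1 as higher. With the block 2 were called higher, C3AR1 and CLU, and 0 lower, beside 6.68% and 7.84% of all genes. Their median log2-fold change was 0.01, beside −0.005 for all genes.

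C3AR1, the receptor for the C3a fragment, had 24 and 42 reads in the control against 157 and 164 reads upon knockdown, and the groups did not overlap. Its log2-fold change was 2.44 (SE 0.28, adjusted p = 0.016), and 2.44 with the block (SE 0.26, adjusted p = 0.00037), a 5.43-fold increase. CLU, a secreted chaperone that also binds terminal complement, had 316 and 155 CPM in the control and 439.7 and 277 CPM in the knockdown libraries. It was higher upon knockdown within each isolate, with a log2-fold change of 0.61 (adjusted p = 0.362) and 0.66 with the block (adjusted p = 0.0035).

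The C1q-binding protein gene C1QBP had a log2-fold change of 0.52 with the block (adjusted p = 0.0065), under the fold limit. CD46, the membrane cofactor for factor I, was at −0.21 (adjusted p = 0.157), and was not compared with CD55 by a test. C1RL was at 0.36 (adjusted p = 0.041), the lectin pathway genes MASP1 at −0.42 (adjusted p = 0.033) and COLEC10 at 0.80 (adjusted p = 0.012), and the pore component C7 at 0.30 (adjusted p = 0.286). Between isolates MASP1, C7 and CLU were called lower in I90-79, at −0.86, −1.52 and −0.85.

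All 17 genes of cytokine signalling known to act on complement genes were tested. CEBPD, a transcription factor gene of the acute phase response, fell from 176 and 182 CPM to 62.6 and 59.3 CPM, a log2-fold change of −1.55 (SE 0.11, adjusted p = 0.0099), and was called without the block. With the block 3 genes were called higher, the kinase gene JAK2 at 0.96 (adjusted p = 0.00035), the transcription factor gene CEBPB at 0.90 (adjusted p = 0.0014) and the feedback inhibitor gene SOCS3 at 1.17 (adjusted p = 0.0010). SOCS1, another inhibitor, was called lower with the block at −0.83 (adjusted p = 0.0011), as was CEBPD. The block called 6.68% of all genes higher and 7.84% lower. The median of the list was 0.02. No test linked these genes to the members.

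**Figure D5:**
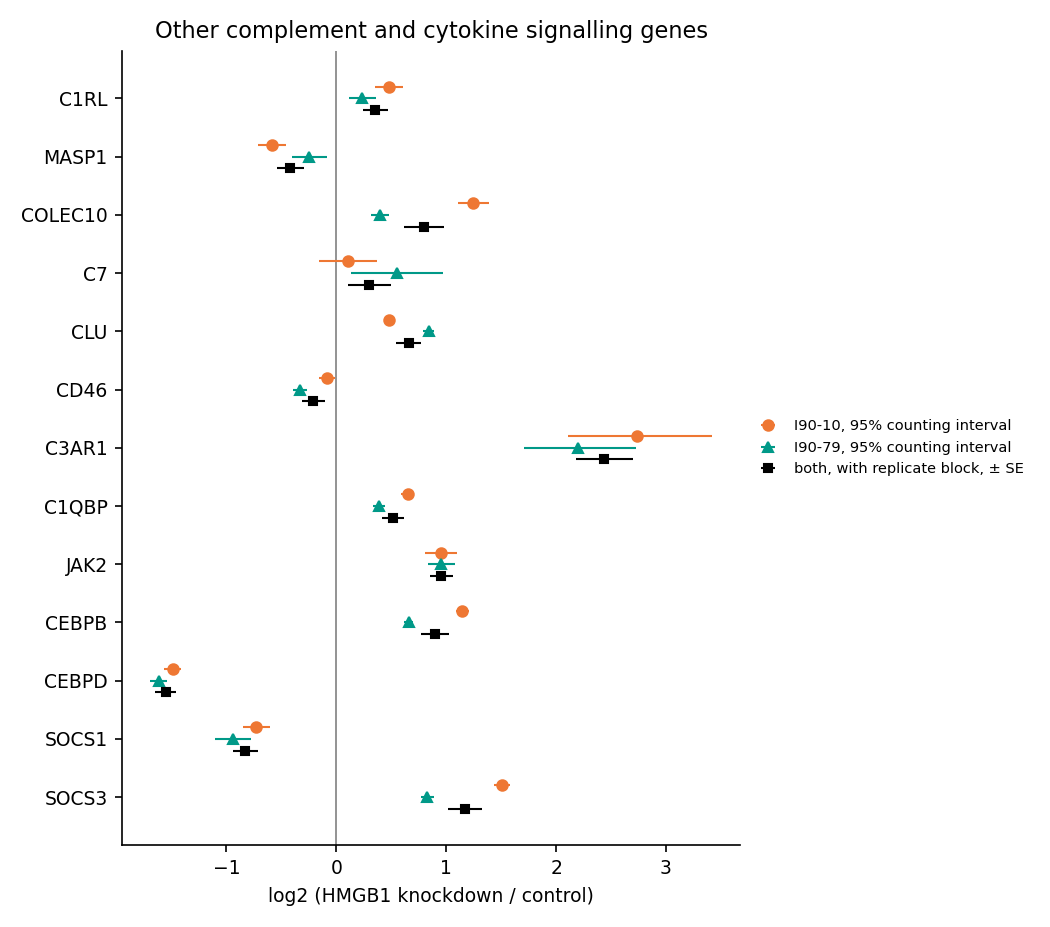
log2 ratio of HMGB1 knockdown to control for other complement genes (C1RL to C1QBP) and genes of cytokine signalling (JAK2 to SOCS3), in I90-10 (orange) and I90-79 (green) with 95% exact counting intervals, and with the replicate block (black, ± SE). C3AR1 lies farthest to the right, at 2.44 with the block, and CEBPD farthest to the left, at −1.55.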

How the data were processed

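RNA was extracted with TRIzol, poly(A)-selected, made into TruSeq libraries and read from both ends on a HiSeq4000 instrument. The authors mapped reads to hg19 with default STAR settings, and deposited raw counts of unique reads per gene from featureCounts, without normalization, for each of 4 libraries. Tool versions, the strand setting and the counting of pairs are not given in the sources used here. The authors then ran RUVs and DESeq2. Here 0 columns of values were left unused.

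Counts were tested with edgeR 4.0.16 (limma 3.58.1, R 4.3.3), after filterByExpr and TMM scaling, with the quasi-likelihood test and Benjamini-Hochberg adjustment over 15398 genes. Calls needed an adjusted p below 0.01 and a log2-fold change past 0.6 in either direction. The samples were not paired in the main test. The labels give both isolates in both groups, which pairs them, and across 15398 genes the isolate difference in control correlated with that in knockdown at 0.46. Blocked values are therefore given beside the results. Alternatives were other scalings and filters, DESeq2 1.42.0, RUVs with 1 factor, the block and leaving out each library. The RUVs factor was computed here without the authors' package, from log counts of all genes tested, centred within each group. The scripts were tested on simulated data. Intervals of ratios are exact binomial (Clopper-Pearson, 95%) and cover counting error only.

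All 9 members, HMGB1, other complement genes of at least 5 CPM or called in either fit, up to 5 called cytokine signalling genes, the highest and lowest cell type markers and the 5 genes most like C3 are named. VWF is named outside this rule. An item that this rule would name is not reported here. The members and lists were chosen with earlier results of these data known.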

Additional observations from a re-analysis of the deposited data

Results flagged for a closer look

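The ratio of knockdown to control took opposite signs in the 2 isolates for 2 members, and neither difference was tested, since the model with both terms and their interaction leaves no residual degrees of freedom. For C3 the log2 ratio was 0.018 in I90-10 and −0.98 in I90-79, a difference of −0.997. For CFI it was −1.80 in I90-10 and 0.34 in I90-79, a difference of 2.13, from 53 and 14 counts in the control and 15 and 15 in the knockdown libraries.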

How the results depend on the processing

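Among the members, CFB, CFD, CD55 and CD59 kept their direction under each alternative that tested them. CFD was not in the run with at least 10 counts in every library. The groups of these genes did not overlap, so leaving out a library left little room for a turn. Upon knockdown, the number of members called higher went from 0 to 1 without the filter on low counts, with the replicate block in edgeR and with the replicate block in DESeq2 (CD55 each time). The number called lower went from 0 to 2 with RUVs. The runs that left out a library had 1 library in a group and no block, so they are no check of these member calls. The cause of these shifts was not tested.

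Signs turned with RUVs for C1R (0.10) and C1S (0.078). When each library was left out, the log2-fold change ran from −0.49 to 0.11 for C1R, from −0.44 to 0.11 for C1S, from −0.97 to 0.0029 for C3, from −1.84 to 0.39 for CFI and from −0.23 to 0.72 for SERPING1. The values that turned were 0.11 (without control replicate 1) and 0.05 (without knockdown replicate 2) for C1R, 0.11 and 0.0081 for C1S without the same libraries, 0.0029 (without control replicate 2) for C3, 0.39 (without control replicate 1) for CFI, and −0.23 (without control replicate 2) and −0.14 (without knockdown replicate 1) for SERPING1. It ran from 0.48 to 1.35 for CD55, from −0.67 to −0.51 for CD59, from 0.46 to 0.87 for CFB and from −2.87 to −1.24 for CFD.

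Over all genes, 10 were called higher and 21 lower. The numbers were 31 and 98 without scaling, 1118 and 1275 without the filter, 728 and 818 with DESeq2, 765 and 832 with RUVs, 1028 and 1207 with the replicate block, 967 and 1091 with the block in DESeq2, and 606 and 693 at an adjusted p below 0.05. With at least 10 counts in every library 6 were higher. Without 1 library they were 0 to 305 and 0 to 337, the lone library of a group being assumed to vary like the others.

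Between isolates, members called higher went from 0 to 1 without the filter, with DESeq2 and at an adjusted p below 0.05, and members called lower from 0 to 1, 1 and 3. Over all genes, 68 higher and 189 lower became 28 and 84 without scaling, 382 and 531 without the filter, 166 and 284 with DESeq2, and 416 and 629 at an adjusted p below 0.05. With at least 10 counts 43 were higher. No library could be left out there, since 3 libraries leave no residual degrees of freedom. The depth limits CFD, CFI and CFB, which had at most 82 counts in any library.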
